A study of Danio rerio with 12 samples.

Results

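Liver transcript levels of enzymes that make, salvage and break down purines and pyrimidines were examined in zebrafish fed diets with or without maize. The set was defined by gene symbol as prps1a, ppat, gart, paics, atic, cad, umps, ctps1a, adkb and gda, after the symbols of the array annotation had been updated to current zebrafish names. Of these 10 genes, 9 had a probe among the deposited values, with 14 probes of 12275 in all, and ppat had none. Of the 9, adkb encodes a salvage enzyme and gda a breakdown enzyme, so that the name synthesis enzymes applies only to the other 7 measured genes. The study itself reported lower transcription of purine and pyrimidine synthesis enzymes on these samples, without naming the genes in its text. A fall of transcripts of the set is thus a description of these pools and not independent evidence. Of ctps1a, the array carries the older symbol ctpsa.

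All fish were adult zebrafish of the AB strain, wild type, kept in tanks of mixed sex. They were fed for 28 days on a diet with 0% maize, in which wheat was the cereal, or on a diet with 25% maize in place of the wheat, and both groups also received live Artemia nauplii. Livers were pooled per sex and replicate tank, and the arrays name 12 pools, 3 each of females on 0% maize, females on 25% maize, males on 0% maize and males on 25% maize. A pool mixes the livers of several fish, and the pools of both sexes of a diet with the same replicate number came from 1 tank. The 12 two-colour arrays formed a closed loop in which each pool appeared under both dyes, and 10 of them set a female pool against a male pool. Of these 10, some set females on 25% against males on 0% maize, and the others set females on 0% against males on 25% maize. These 2 chains of pools were joined only by 1 array of 2 female pools and 1 array of 2 male pools.

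The deposited values are log ratios of the dyes, taken as log2 after the convention of limma. Their direction is likely Cy5 over Cy3. Read that way, the 47 probes of the vitellogenins, the yolk proteins that female liver secretes, were higher in the female pool in 470 of 470 values from the 10 arrays that set a female against a male pool. Every direction given below rests on this. A level is the log2 value of a pool relative to the mean of the 12 pools for the same probe, so that levels of different genes cannot be compared. An error on either array that joins the chains shifts all pools of a sex and diet together. It moves the diet difference in females and that in males in opposite directions. Where the order of pools is given below, the pools are therefore not separate measurements. A diet change is the log2 difference of 25% minus 0% maize from the limma model, which gives shared pools their own variance and so can differ slightly from the difference of the mean levels. The probes were called at an adjusted p under 0.05 after Benjamini-Hochberg adjustment over all 12275 probes. A ratio array does not show whether a tissue marker is present, and all 15 hepatocyte markers listed for the check of the tissue had a probe. In pooled liver, fewer cells of a type and less RNA per cell cannot be told apart.

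Purine nucleotides are built step by step on phosphoribosyl pyrophosphate, the activated sugar that Prps1a makes and that pyrimidine synthesis also consumes. Ppat takes the committed step, the multifunctional enzymes Gart, Paics and Atic carry out steps that lead to inosine monophosphate, and inosine monophosphate is then turned into the adenine and guanine nucleotides. Pyrimidine synthesis starts with the multifunctional enzyme Cad and reaches uridine monophosphate with Umps, and Ctps1a turns the uridine nucleotide into the cytidine nucleotide with glutamine as the nitrogen donor. Adkb, an adenosine kinase, returns adenosine to the nucleotide pool, and Gda, a guanine deaminase, removes guanine towards xanthine and uric acid. The liver is known as a main site of purine synthesis and as a supplier of nucleosides to other tissues.

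Independent of sex, 6 of the 14 probes were lower on 25% maize and 0 were higher by limma. An unadjusted p under 0.05 was reached by 7 probes, all of them lower, beside 1986 of all probes in either direction. With arrays scaled to one spread 0 of the 14 and 0 of all probes passed, with changes of the 6 between -0.49 and -1.07, and with a tank variance equal to the pool variance 4 of the 14 passed. The 6 were 1 of the 2 prps1a probes, both ctps1a probes, both adkb probes and the gda probe. Over all probes, 248 were lower (2.02%) and 210 higher (1.71%). The estimate was below 0 for 13 of the 14 probes, with a median of -0.15 against -0.0059 over all probes, and the gart, paics, atic, cad and umps probes did not pass. By gene, with the mean of a gene's probes, prps1a, ctps1a, adkb and gda were lower, 4 of 9, beside 171 of 6684 genes lower (2.56%) and 134 higher (2%).

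**Figure D1:**
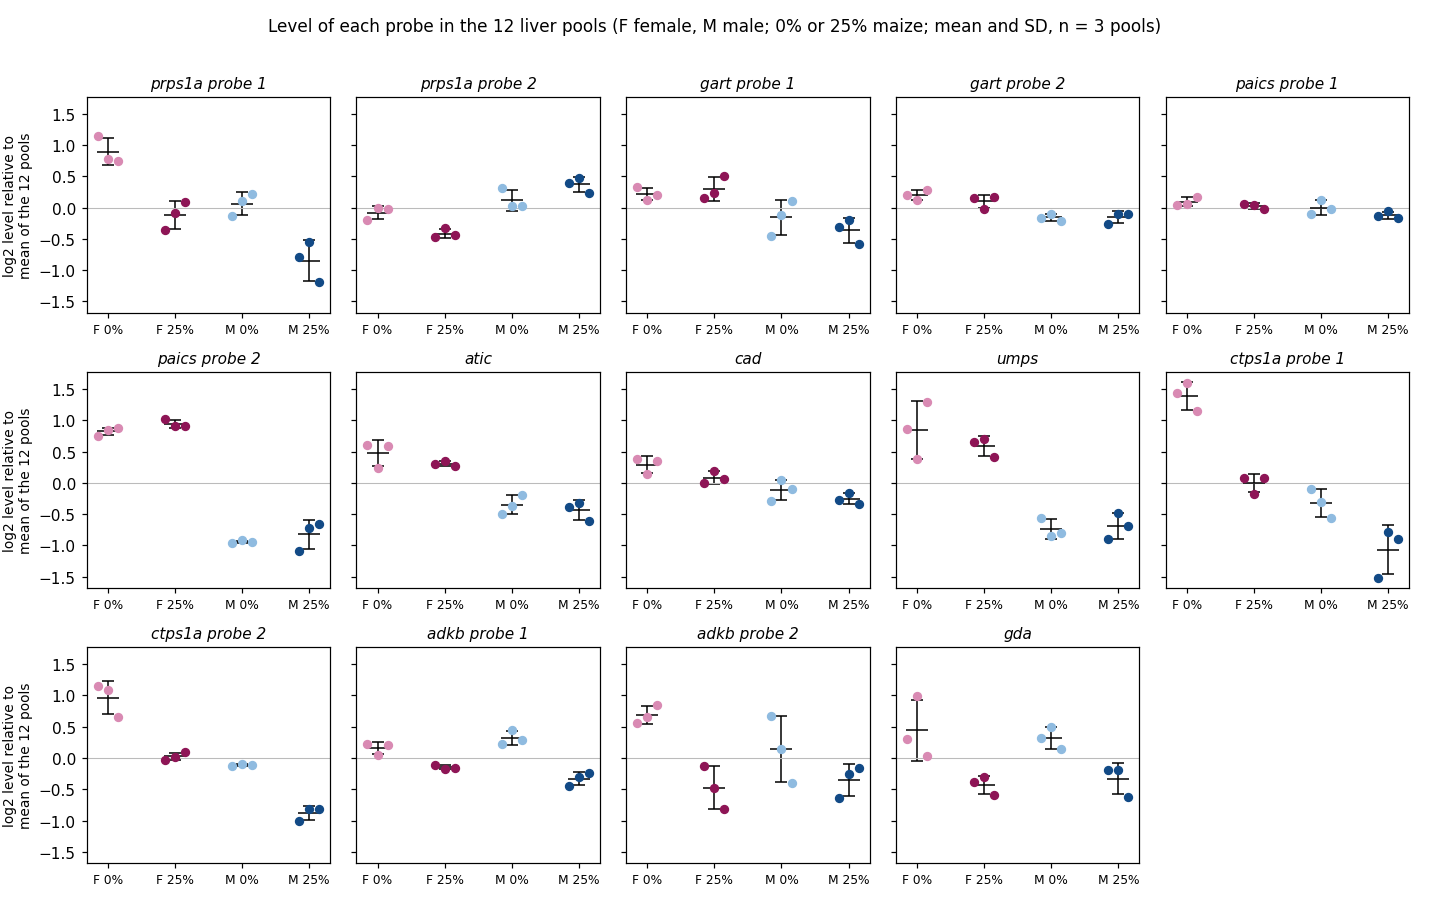
Log2 level of each of the 14 probes in the 12 liver pools, relative to the mean of the pools (vertical axis), by sex and diet (horizontal axis). Points are pools, and bars are the mean and SD of 3 pools. For both ctps1a probes, prps1a probe 1, adkb probe 1 and gda the pools on 25% maize lie below those on 0% maize in each sex. Umps and paics probe 2 are among the probes that separate the sexes.

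At the head of the pathway, the 2 probes of prps1a behaved differently. Probe 1 (A_15_P120714) had levels of 1.14, 0.79 and 0.76 in the female pools on 0% maize (replicates 1, 2 and 3) and of -0.36, -0.08 and 0.10 on 25% maize (replicates 2, 3 and 4). In males the levels were -0.13, 0.11 and 0.22 on 0% maize (replicates 1, 3 and 4) and -0.80, -0.55 and -1.20 on 25% maize (replicates 1, 2 and 3). The same replicate numbers hold for all values below. In both sexes every pool on 25% maize was below every pool on 0% maize. By this probe the transcript was 1.95-fold lower on 25% maize, with a log2 change of -0.96 (standard error 0.11, 95% confidence interval -1.20 to -0.72, adjusted p = 0.00337 from limma).

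Probe 2 of prps1a (A_15_P512227) had a log2 change of -0.04 with an interval of -0.21 to 0.13 (adjusted p = 0.901 from limma). Its levels in females were -0.20, -0.0042 and -0.02 on 0% maize and -0.47, -0.33 and -0.44 on 25% maize, without overlap. In males they were 0.31, 0.02 and 0.02 on 0% maize and 0.40, 0.48 and 0.24 on 25% maize, and these overlapped. The change was -0.29 in females and 0.21 in males, and their difference of -0.50 (interval -0.95 to -0.06) had an unadjusted p of 0.031 and an adjusted p of 0.501 in limma. Across the 12 pools the levels of both prps1a probes had a correlation of -0.42, so that the mean of the gene, with a log2 change of -0.50, joins probes that differ. Both probes matched the same RefSeq transcript. Which part of the transcript each detects was not analysed here.

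The probes of the inner purine steps showed no diet change that passed. The 2 gart probes (A_15_P109590 and A_15_P656536) had log2 changes of -0.06 (interval -0.27 to 0.15) and -0.05 (interval -0.18 to 0.09). The paics probes (A_15_P117771 and A_15_P753586) had changes of -0.10 (interval -0.23 to 0.04) and 0.12 (interval -0.04 to 0.28). For atic (A_15_P219176) the change was -0.13 (interval -0.31 to 0.06). The intervals of these 5 probes leave out a fall as large as the -0.96 of prps1a probe 1, and their adjusted p-values in limma lay between 0.488 for paics probe 2 and 0.87 for gart probe 1. In females all 3 levels of paics probe 2 on 25% maize (1.02, 0.92 and 0.91) were above those on 0% maize (0.76, 0.84 and 0.87). Paics probe 2 was the only one of the 14 probes with that order of the female pools.

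At the start of the pyrimidine pathway, cad (A_15_P631951) had a log2 change of -0.17 (standard error 0.08, interval -0.34 to -0.0078, adjusted p = 0.278 from limma). Its levels were 0.38, 0.14 and 0.35 in females on 0% maize and -0.0021, 0.19 and 0.06 on 25% maize, and -0.29, 0.04 and -0.10 in males on 0% maize and -0.28, -0.16 and -0.33 on 25% maize. The diets overlapped in both sexes, and with an unadjusted p of 0.0417 in limma cad was the one probe of the set with a p under 0.05 that did not pass the adjustment. For umps (A_15_P115426), which completes uridine monophosphate, the change was -0.11 (interval -0.39 to 0.18, adjusted p = 0.82 from limma). Its levels in females ran from 0.38 to 1.30 on 0% maize and from 0.41 to 0.70 on 25% maize.

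Transcripts of ctps1a, the cytidine triphosphate synthase, had the largest fall of the set by gene mean, with a log2 change of -0.96. Probe 1 (A_15_P108921) had levels of 1.43, 1.60 and 1.16 in females on 0% maize and 0.08, -0.18 and 0.08 on 25% maize. In males it had levels of -0.10, -0.31 and -0.56 on 0% maize and -1.52, -0.78 and -0.89 on 25% maize. Probe 2 (A_15_P141386) had levels of 1.15, 1.08 and 0.66 against -0.03, 0.01 and 0.09 in females, and of -0.13, -0.10 and -0.11 against -1.01, -0.81 and -0.81 in males. With both probes and in both sexes, every pool on 25% maize was below every pool on 0% maize.

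Independent of sex, ctps1a probe 1 was 2.1-fold lower (log2 change -1.07, standard error 0.13, adjusted p = 0.00381 from limma) and probe 2 was 1.81-fold lower (log2 change -0.85, standard error 0.08, adjusted p = 0.00314), the third of all 12275 probes by p. Their levels had a correlation of 0.97 across the 12 pools. The mean level of probe 1 was highest in females on 0% maize, at 1.39 ± 0.22 (SD, n = 3 pools), followed by females on 25% maize at -0.0069 ± 0.15, males on 0% maize at -0.32 ± 0.23 and males on 25% maize at -1.07 ± 0.40. In that order the females on 25% maize and the males on 0% maize overlapped, and the other neighbours did not. The paralog ctps1b, which had 1 probe, had a log2 change of -0.07 (adjusted p = 0.711 over genes). Whether probes of close paralogs cross-hybridise was not tested.

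Among the salvage enzymes, both adkb probes were lower on 25% maize. Probe 1 (A_15_P107904) had levels of 0.22, 0.06 and 0.21 in females on 0% maize and -0.11, -0.17 and -0.17 on 25% maize, and of 0.22, 0.45 and 0.29 in males on 0% maize and -0.45, -0.31 and -0.24 on 25% maize. The groups did not overlap in either sex, and the log2 change was -0.48 (standard error 0.06, adjusted p = 0.00478 from limma), a 1.39-fold fall. Probe 2 (A_15_P149001) varied more. Its levels were 0.56, 0.65 and 0.85 against -0.13, -0.48 and -0.82 in females, and 0.67, 0.15 and -0.40 against -0.63, -0.26 and -0.16 in males. The female groups were apart, and the male groups overlapped because the pool of replicate 4 on 0% maize was low. Probe 2 was 1.77-fold lower (log2 change -0.83, standard error 0.14, adjusted p = 0.0111 from limma), and 0.0564 without the male pool of replicate 1 on 25% maize. The paralog adka, with 5 probes, had a log2 change of 0.09 (adjusted p = 0.772 over genes).

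The guanine deaminase gda (A_15_P108189) had levels of 0.31, 0.99 and 0.04 in females on 0% maize and -0.38, -0.31 and -0.60 on 25% maize. In males its levels were 0.32, 0.50 and 0.15 on 0% maize and -0.20, -0.18 and -0.62 on 25% maize. The groups were apart in both sexes, although the pools on 0% maize spread widely in females. The transcript was 1.70-fold lower (log2 change -0.77, standard error 0.14, adjusted p = 0.0164 from limma). This call was the least stable of the 6. The adjusted p was between 0.0503 and 0.0586 after leaving out replicate 2 or 4 of the females on 25% maize, replicate 1 or 3 of the males on 0% maize, or replicate 1 or 3 of the males on 25% maize, with changes of -0.71 to -0.79.

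**Figure D2:**
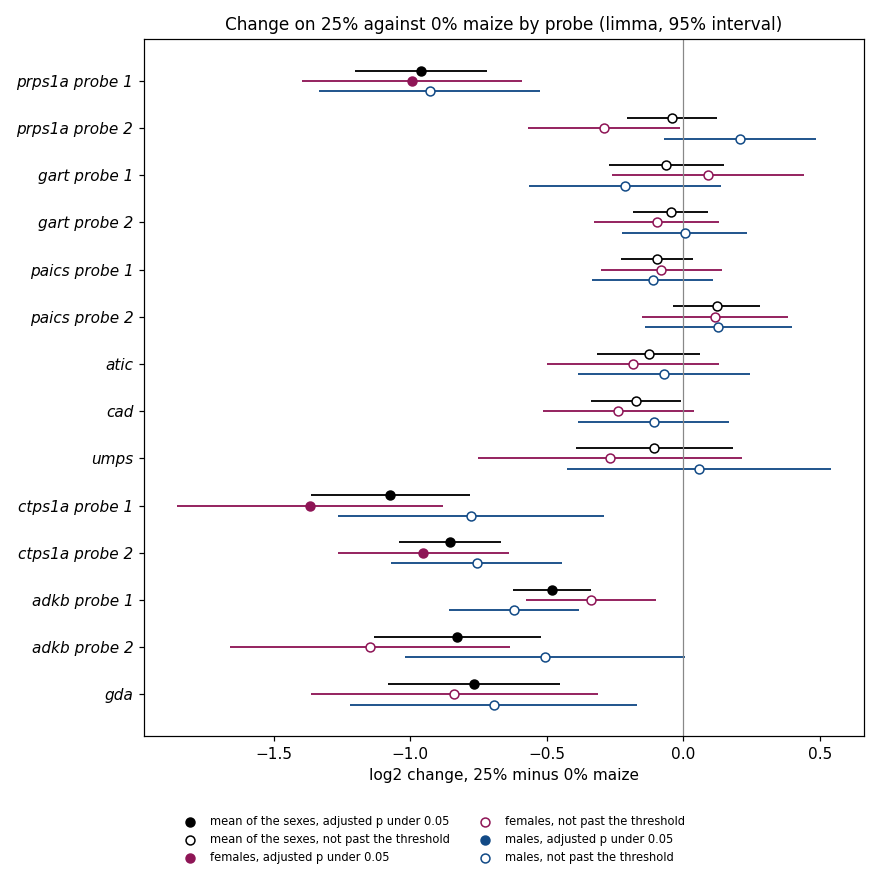
Log2 change on 25% against 0% maize (horizontal axis) for each of the 14 probes (vertical axis), as the mean of the sexes, in females and in males, with 95% confidence intervals from limma. Filled points passed an adjusted p of 0.05, which 6 probes did for the mean of the sexes, 3 in females and 0 in males.

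Within single sexes fewer probes passed. In the model, the female and the male diet change are told apart only through 1 array of 2 female pools and 1 of 2 male pools. For prps1a probe 1 the standard error was 0.18 in each sex and 0.11 for the mean of the sexes. In females, prps1a probe 1 (log2 change -0.99, adjusted p = 0.0366) and the ctps1a probes (-1.37, adjusted p = 0.026, and -0.95, adjusted p = 0.0238) were lower by limma, 3 of 14 beside 16 of all probes (0.13%), and 0 were higher beside 77 (0.627%). This count was 0 without the female pool of replicate 1 on 0% maize, 0 without that of replicate 4 on 25% maize and 1 without that of replicate 3 on 25% maize. Replicate 1 on 0% maize and replicate 4 on 25% maize are the pools of the array of 2 female pools. Leaving out either of them takes away the same direct comparison of the diets in females. In males 0 of 14 passed in either direction by limma, beside 5 of all probes lower (0.0407%) and 1 higher (0.00815%), and 5 of the 14 had an unadjusted p under 0.05, beside 1260 of all probes. The male changes were -0.93 for prps1a probe 1 (adjusted p = 0.0948 from limma), -0.78 and -0.76 for the ctps1a probes (0.243 and 0.0792), -0.62 and -0.51 for the adkb probes (0.0716 and 0.496) and -0.69 for gda (0.335).

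Passing in females and not in males is no difference between the sexes. The difference of the female and the male change rests on both arrays of a single sex, with a standard error of 0.29 for prps1a probe 1. The difference of the diet changes passed for 0 of the 14 probes by limma, beside 0 of all probes (0%), with 1 of the 14 and 1113 of all probes at an unadjusted p under 0.05. For ctps1a probe 1 the difference of female minus male change was -0.59 with an interval of -1.37 to 0.19, which includes no difference and also a larger fall in females. For adkb probe 2 it was -0.64 (interval -1.46 to 0.18). For prps1a probe 1 it was -0.06 (interval -0.71 to 0.58).

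The order of single pools was also compared. It depends on both arrays of a single sex, which join the chains, and does not set separately measured pools against each other. In females all 3 pools on 25% maize were below all 3 on 0% maize for 7 of the 14 probes, beside 9.44% of all probes, and above them for 1, beside 11.9%. In males they were below for 5 probes, beside 10% of all probes, and above for 0, beside 7.18%. Both arrays that held a single sex compared the diets directly, within 1 hybridisation and with the dye effect included. Each had its pool on 25% maize in the same dye. A dye effect thus moves both ratios the same way, and like signs on both do not control for it. On the female array (replicate 4 on 25% over replicate 1 on 0% maize) the ratio was -1.27 and -1.05 for the ctps1a probes, -1.21 for prps1a probe 1, -0.90 for gda and -0.33 and -1.51 for the adkb probes. On the male array (replicate 3 on 25% over replicate 1 on 0% maize) the ratio was -0.71 and -0.68 for the ctps1a probes, -1.23 for prps1a probe 1, -0.94 for gda and -0.40 and -0.97 for the adkb probes. All 6 probes were thus lower on 25% maize on both arrays, where the median of all probes was -0.02 and -0.01. Both arrays were part of the fit that called the 6, so that this is a description and no separate support. Prps1a probe 2, paics probe 1 and cad were also below 0 on both arrays. Both gart probes and paics probe 2 were above 0 on both, and atic and umps were below 0 on the female array only. Some of these signs reversed in the levels, which are solved with a dye term. Gart probe 1, atic and umps had male ratios of 0.0027, 0.0027 and 0.07. Their levels were -0.59, -0.61 and -0.69 in the 25% maize pool of that array and -0.45, -0.49 and -0.56 in its 0% maize pool. Gart probe 2 had a female ratio of 0.08, with levels of 0.17 (replicate 4) and 0.20 (replicate 1).

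Sex set a different group of these transcripts apart. Over both diets, 9 of the 14 probes were higher in females and 1 was higher in males by limma, in data where 35.1% of all probes were higher in females and 34.3% higher in males. The 9 were prps1a probe 1, both gart probes, paics probe 2, atic, cad, umps and both ctps1a probes. Paics probe 1, both adkb probes and gda did not pass. Prps1a probe 1 and both ctps1a probes were thus called for sex and for diet. Most of all probes differed between the sexes in one direction or the other, so that a sex difference as such is not particular to this set.

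**Figure D3:**
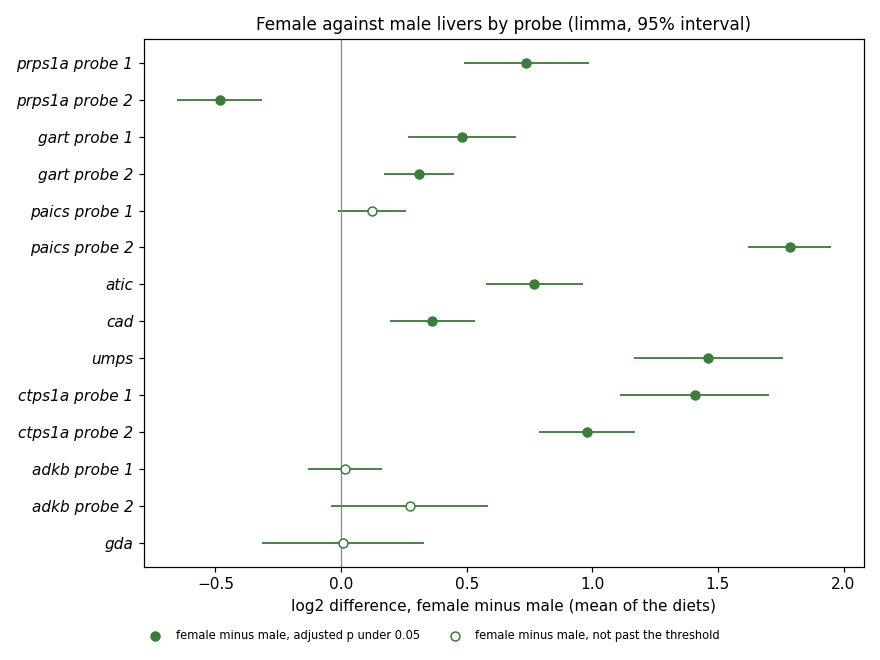
Log2 difference of female minus male livers (horizontal axis), as the mean of the diets, for each of the 14 probes (vertical axis), with 95% confidence intervals from limma. Filled points passed an adjusted p of 0.05. Paics probe 2 and umps lie farthest to the right at 1.79 and 1.46, and prps1a probe 2 lies to the left at -0.48.

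The largest difference was that of paics probe 2, at 1.79 (standard error 0.07, adjusted p = 2.09e-08 from limma), a 3.45-fold higher level in females. Its 6 female levels ran from 0.76 to 1.02 and its 6 male levels from -1.10 to -0.66. Paics probe 1 had female levels from -0.02 to 0.17 and male levels from -0.17 to 0.13, with a difference of 0.12 (adjusted p = 0.0957 from limma). The probes of this bifunctional enzyme thus differed in their spread over the 12 pools, with SDs of 0.10 for probe 1 and 0.93 for probe 2.

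Umps was 2.76-fold higher in females (log2 difference 1.46, standard error 0.13, adjusted p = 5.11e-06 from limma), with female levels from 0.38 to 1.30 and male levels from -0.90 to -0.48. For the ctps1a probes the differences were 1.41 and 0.98, for atic 0.77, for prps1a probe 1 0.74, for the gart probes 0.48 and 0.31 and for cad 0.36. Probe 2 of prps1a was the exception, at -0.48 (adjusted p = 0.000238 from limma), with all female levels (-0.47 to -0.0042) below all male levels (0.02 to 0.48). The adkb probes differed by 0.02 (interval -0.13 to 0.16) and 0.27 (interval -0.04 to 0.59), and gda by 0.0068 (interval -0.31 to 0.33). All 6 female pools lay above all 6 male pools for 6 of 14 probes, beside 20.4% of all probes, and below them for 1, beside 17.2%.

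Cell type markers also differed between the sexes in the same pools. All 11 measured ovary and oocyte markers of 16 listed were higher in females by limma, by 3.32 on average, as were all 9 measured markers of proliferating cells of 13 listed, by 1.74. Of the 15 hepatocyte markers, 13 were lower in females and 1 was higher, with a mean difference of -1.38. Also lower in females were 15 of 15 exocrine pancreas markers (mean difference -1.47), 4 of 5 endocrine pancreas markers (-1.25), 9 of 10 intestine markers (-1.43) and 7 of 7 erythrocyte markers (-1.61), and 0 of 9 leukocyte markers passed by limma (-0.36), 1 of them at an unadjusted p under 0.05. The mean level of the ovary markers was between 1.00 and 2.42 in the female pools on 0% maize, between 1.17 and 1.77 in those on 25% maize, between -1.96 and -1.63 in males on 0% maize and between -1.80 and -1.13 in males on 25% maize. The lowest female pool was replicate 2 on 0% maize, at 1.00. Of the probes higher in females, umps (0.38), atic (0.24), cad (0.14) and the gart probes (0.13 and 0.12) were the lowest of the 3 pools of that group there, ctps1a probe 2 (1.08), paics probe 2 (0.84) and prps1a probe 1 (0.79) were in the middle, and ctps1a probe 1 (1.60) was the highest. Female replicate 2 on 0% maize also had the lowest mean level of the proliferation markers among the female pools, at 0.29. Over all probes it lay farthest from its group, with a root mean square deviation of 0.36 against 0.19 to 0.26 for the other pools. How many of all probes were lowest in that pool was not counted. The part of ovary tissue, cell proliferation and the other cell types in the sex differences was not tested.

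For the diets, 2 of the 15 hepatocyte markers were higher by limma in the mean of the sexes. None of the 11 ovary and 9 proliferation markers passed, none of the 15 exocrine and 5 endocrine markers of the pancreas, which in zebrafish is intertwined with the liver, and none of 10 intestine, 7 erythrocyte and 9 leukocyte markers. Of these, 1 exocrine pancreas, 1 intestine and 1 leukocyte marker had an unadjusted p under 0.05. The ovary markers changed by -0.58 on average in females and by 0.31 in males, the proliferation markers by -0.33 and 0.37, the exocrine pancreas markers by 0.48 and -0.21 and the endocrine pancreas markers by 0.70 and 0.67. The intestine markers changed by 0.96 in females, where 4 of 10 had an unadjusted p under 0.05 and none passed by limma, and by -0.65 in males, the erythrocyte markers by 0.18 and 0.46 and the leukocyte markers by -0.06 and 0.17. The hepatocyte markers changed by 0.27 in females, where 1 marker passed as higher, and by -0.08 in males. In females their mean level was between -0.94 and -0.71 on 0% maize and between -0.61 and -0.50 on 25% maize, without overlap. In males it overlapped, at 0.57 to 0.92 and 0.61 to 0.68. The exocrine pancreas markers were also apart in females, narrowly, at -1.03 to -0.779 and -0.777 to -0.038. Among all probes, the female pools on 25% maize lay below those on 0% maize for 9.44% and above them for 11.9%. Such an order depends on the arrays that join the chains. In each of these lists 0 markers passed for a difference between the female and the male change by limma. An unadjusted p under 0.05 was reached by 4 hepatocyte, 4 intestine, 3 exocrine pancreas and 1 proliferation marker. An error on an array that joins the chains moves the female and the male change in opposite directions. The part of the other cell types in the diet changes was not tested.

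Genes of the wider nucleotide pathway did not share one direction. Of 87 genes listed, 53 were measured, and 6 were lower and 3 higher on 25% maize in the mean of the sexes. Over all genes, 2.56% were lower and 2% higher. Leaving out the 10 genes of the set, 44 of 77 were measured, 2 were lower and 3 higher, with a median change of 0.0003 against -0.0072 over all genes. Whether such small counts differ from the shares over all genes was not tested. The lower genes were pnp4b, a purine nucleoside phosphorylase (log2 change -0.48, adjusted p = 0.012 from limma), and upp2, a uridine phosphorylase (-0.56, adjusted p = 0.0166). The higher genes were slc25a32a, a mitochondrial carrier of the folate carrier family (2.07, adjusted p = 0.00334 from limma), ftcd, an enzyme of histidine breakdown that charges folate (0.52, adjusted p = 0.0186), and xdh, the xanthine dehydrogenase that follows guanine deaminase towards uric acid (0.54, adjusted p = 0.0203).

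**Figure D4:**
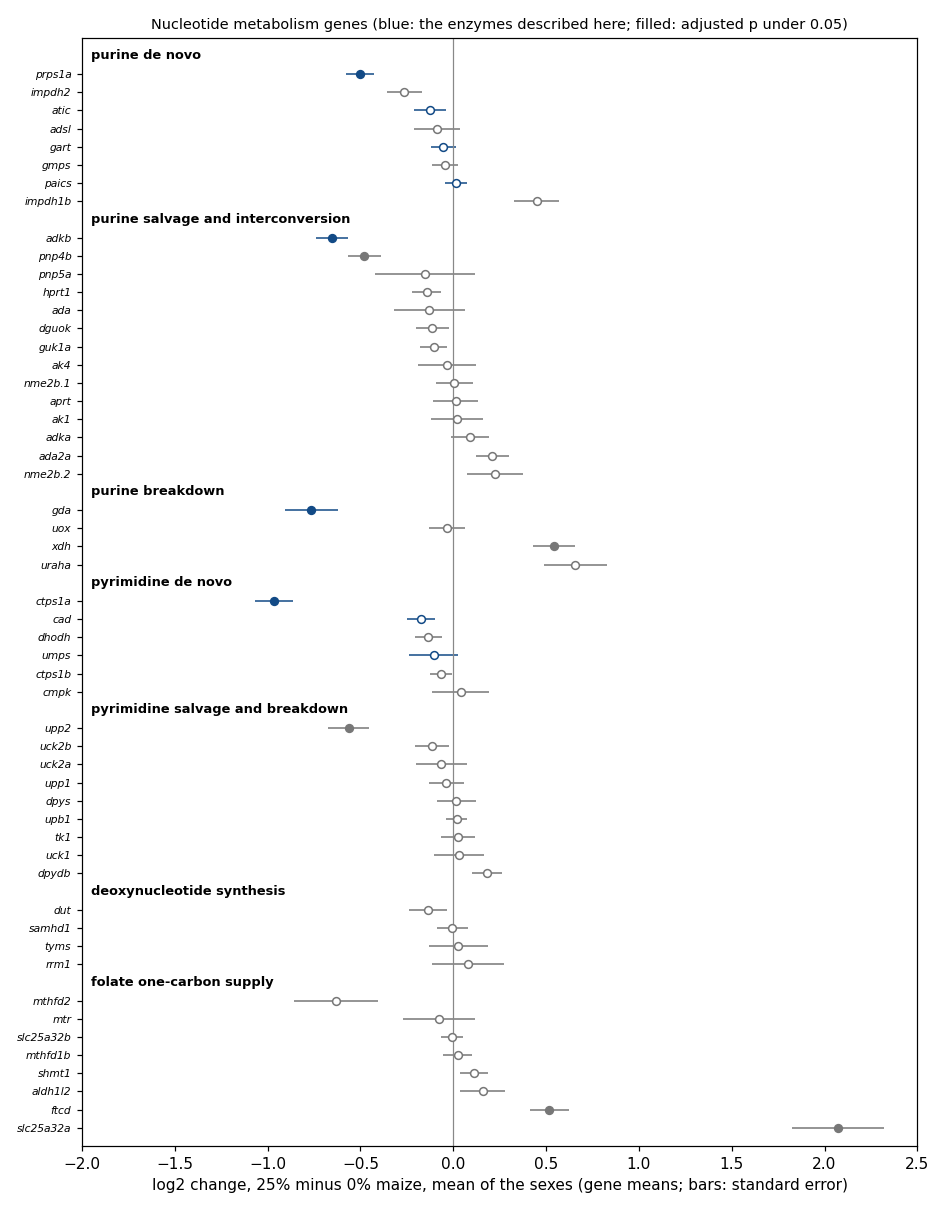
Log2 change on 25% against 0% maize, mean of the sexes (horizontal axis), for the 53 measured nucleotide metabolism genes grouped by pathway (vertical axis), with standard errors from limma on gene means. Blue marks the genes of the set, and filled points passed an adjusted p of 0.05, 6 lower and 3 higher.

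By branch, 1 of 8 measured genes of purine synthesis was lower (prps1a), 2 of 14 of purine salvage and interconversion (adkb and pnp4b), and 1 of 6 of pyrimidine synthesis (ctps1a). The prps1a mean joins probe 1, which was lower, and probe 2, which did not pass. In purine breakdown, 1 of 4 was lower (gda) and 1 higher (xdh). In pyrimidine salvage and breakdown 1 of 9 was lower (upp2). None of the 4 measured genes of deoxynucleotide synthesis passed by limma, where dut had the lowest unadjusted p at 0.209, and 2 of 8 folate genes were higher. These small counts stand beside 2.56% of all genes lower and 2% higher. The changes of impdh1b and impdh2, which encode the first enzyme of guanine nucleotide formation, were 0.45 (adjusted p = 0.0652 from limma) and -0.26 (adjusted p = 0.163). For dhodh, which works between Cad and Umps in the mitochondrion, the change was -0.13 (adjusted p = 0.397 from limma).

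For correlations, the level of a gene is the mean of its probes, which for paics had SDs of 0.10 and 0.93. Across the 12 pools, the levels of gart, paics, atic, cad and umps varied together, with correlations between 0.81 for paics with cad and 0.95 for paics with umps. These correlations are over pools of both sexes and diets and carry the sex difference. After subtraction of the group means they ran from -0.01 for paics with atic to 0.72 for atic with cad. Ctps1a also varied with these genes, with correlations from 0.74 with gart to 0.83 with cad. Within the groups its correlations with them ran from -0.49 with atic to 0.29 with paics. The gda levels had correlations of 0.80 with prps1a, 0.74 with adkb and 0.57 with ctps1a, and of -0.01 with paics and umps, and within the groups of 0.25, -0.08 and 0.30 with the first 3. The mean of prps1a joins probes that had a correlation of -0.42 with each other.

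The gene whose levels were most like those of ctps1a over the 12 pools was larp1, an RNA-binding regulator of translation, with a correlation of 0.98 (0.59 within the groups), a log2 diet change of -0.61 and an adjusted p of 0.00266 from limma. For prps1a, whose mean joins probes that differ, it was eif3jb, a translation initiation factor subunit (0.92, within groups 0.65), with a change of -0.34. For gda it was slc41a1, a magnesium transporter (0.91, within groups 0.80), with a change of -1.13, and for adkb it was tomm40, the channel of protein import into mitochondria (0.91, within groups 0.64), with a change of -0.18 that did not pass. The nearest genes were snu13a for gart (0.97), ssr2 for paics (0.99), mettl2a for atic (0.99), thop1 for cad (0.97) and mcmbp for umps (0.99), and the diet changes of these 5 genes did not pass. Each is the highest correlation among the genes outside the set, over pools that share arrays, and is given as a description.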

How the data were processed

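The authors pooled livers per sex and tank, hybridised their RNA to Agilent zebrafish arrays in both dyes, read the scans with GenePix Pro and processed the intensities with limma, a tool the submitters' processing notes also name. Each deposited value is a log ratio of both dyes for 1 probe on 1 array, taken here as log2 after the convention of limma. How background was corrected, how arrays were normalized, which filter left 12275 probes, and the base and direction of the ratio were not given in the sources used here. Array medians lay between -0.05 and 0.04. The methods give 4 replicates per diet, and the labels name 3 pools per sex and diet.

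The model, run in limma 3.58.1 (R 4.3.3) on the log2 ratios of all probes, had terms for the diet in each sex, the sex and the dye. Ratios were first whitened for the correlation between arrays with a common pool or tank. The variance ratios, by restricted maximum likelihood over all probes, relative to the array error, were 2.91 (pools) and 0 (tanks), or 3.59 (pools) with 1 value per gene. The model has 8 residual degrees of freedom. Benjamini-Hochberg adjusted p-values under 0.05 were called. Pool levels were solved from the closed loop with a dye term. The steps for the mean of the sexes were run on data simulated from the fitted variance ratios, with no tank variance. That run does not test the choice of the model or the changes within a single sex. The numbers of arrays and of tanks limit the precision, and p-values set a change against the spread between pools and the array error. The diet was given to tanks, with replicate numbers from 1 to 4. With the tank variance fitted as 0, pools of the same tank count as separate units.

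Of the probes, 10307 had 1 symbol, named through RefSeq accessions of GRCz12tu (9007), current symbols (976) or synonyms (317), with 7 kept as given, for 6684 genes. All probes of the set are reported. Of the wider list, genes past the threshold were named, at most 4 in each direction by smallest p, and upp2 beyond that rule, after its values were seen. The gene nearest to each member in its pool levels was named. The members and all lists were chosen with earlier results of these data known. No sequences are shown, and promoter motifs were not analysed here. Alternatives concerned pools, tanks, dye, replicate numbers, array scaling and weights, moderation, the threshold, the averaging of a gene's probes and the omission of each pool in turn. Figures were drawn with matplotlib 3.10.9.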

Additional observations from a re-analysis of the deposited data

How the results depend on the processing

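The 6 probes lower on 25% maize independent of sex stayed below 0 under all 22 alternatives. For genes with 2 probes, 1 of the 22 takes the mean of the probes and so does not test the single probe. For prps1a that mean includes probe 2, which did not pass by itself. Both ctps1a probes, prps1a probe 1 and adkb probe 1 passed under 21 of the 22, the exception being arrays scaled to one spread, where the adjusted p was 0.264 in limma and the changes were -1.07 and -0.88 for ctps1a, -1.02 for prps1a probe 1 and -0.49 for adkb probe 1. Under that scaling the number of lower probes of the set was 0 independent of sex, 0 in females and 2 in males, that of all probes that differed between the diets 0 and that of lower genes in the wider list 0. Scaling enlarges the arrays of a single sex, whose ratios had a median absolute deviation of 0.36 and 0.24 against 0.45 to 0.99 on the others, and it turned gart probe 2 to 0.011 and umps to 0.019. Adkb probe 2 passed under 19 alternatives and gda under 14, and with a tank variance equal to the pool variance they changed by -0.83 (adjusted p = 0.0676 from limma) and -0.79 (adjusted p = 0.0805).

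The number of all probes that differed between the diets, 458, was 236 on the pool levels, 1903 with arrays taken as independent, 88 with the tank variance, 988 without a dye term, 2239 with array weights, whose estimation did not fully converge, and 843 at an adjusted p under 0.10. Leaving out each pool in turn it ran from 132 without the male pool of replicate 1 on 25% maize to 1309 without the female pool of replicate 2 on 0% maize, the pool farthest from its group. Without a single pool the lower probes of the set numbered 4 to 6 independent of sex and 0 to 4 in females. The lower probes in males, 0, were 2 on the pool levels, 4 with array weights and 3 at the threshold of 0.10. Array weights gave 10 lower probes in females and 2 whose change differed between the sexes. The wider list had 3 lower genes with the tank variance. With 1 value per gene, paics changed by 0.013 and prps1a by -0.50 (adjusted p = 0.00571 from limma). Prps1a probe 2 ran from -0.067 to 0.0086 as single pools were left out, above 0 only without the male pool of replicate 1 on 0% maize. The causes were not tested.

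With the replicate number as a block (replicate block), all 6 probes remained lower, with adjusted p-values up to 0.049, but the number in females was 0, that in the wider list 4 and that of all probes 105. Whether the numbers pair tanks across the diets was not given in the sources used here. Pools of 1 sex with the same number had deviations from their group means that correlated, over probes, at 0.15 and 0.21 in females and at -0.17 and 0.11 in males.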
